A study of Mus musculus with 2 samples.

Results

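The genes Edn2, Nts, Apln and Prkg2 were followed as 4 of the 22204 gene names listed in Slide-seq tables of mouse ovary. They were chosen by name, because earlier results of these data placed them among the genes with the highest ratio of the old to the young section, so that ratio is a description here and carries no test. The old section lists all 4, and the young section lists 3, without Edn2. In Slide-seq, RNA from a frozen section is caught by barcoded beads at mapped positions, so that each count carries a place. The old section (replicate 1) came from a C57BL6/J female of about 14 months and the young section (replicate 3) from a C57BL6/J female of 2 months, with no treatment or mutation named in either. Per the labels' protocols, sections of 10 µm were picked to show several oocytes in 1 plane, and the sections of each age came from 2 females. The cohort's other sections were not analysed here.

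The old section held 2348768 counts on 10267 beads and the young section 5158314 counts on 21403 beads. A median bead held 125 counts (old) or 153 counts (young). The libraries shared 0 bead barcodes. Every marker on the ovarian cell type lists was detected in each section, including the 10 granulosa, 7 luteal and 12 oocyte genes. There was 1 library for each age, so age cannot be told apart from animal, plane of section or library, no test of age was possible, and all 95% intervals cover counting error only. In summed tissue, fewer cells of a type and less RNA per cell cannot be told apart.

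After the preovulatory surge of luteinising hormone, granulosa cells of the ripe follicle switch on a short programme of secreted peptides, proteases and kinases that precedes rupture and the formation of the corpus luteum. Endothelin 2, the product of Edn2, is a constrictor peptide that acts through the receptors Ednra and Ednrb and is known for its brief peak in granulosa cells around ovulation. Neurotensin, from Nts, is a peptide first known from brain and gut that is also induced in the ovulatory follicle. Apelin, from Apln, signals through Aplnr and is known as a hypoxia-responsive factor in vessel growth. Prkg2 encodes the membrane-bound cGMP-dependent protein kinase II, which is no peptide but is likewise induced in granulosa cells at ovulation.

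In the GRCm38.p6 RefSeq table the genes lie apart, Edn2 on chromosome 4 at chr4:120161206-120167360, Nts at chr10:102481756-102490418, Apln at chrX:48025146-48034853 and Prkg2 at chr5:98929773-99037375, and all 4 are protein-coding. Because Edn2, Nts and Apln were high together in the old section but lay differently within it, the 250 bases before their annotated starts are shown, as given by RefSeq for GRCm38.p6 and read 5′ to 3′ along the gene. The stretches are chr4:120160956-120161205 on the plus strand for Edn2, and chr10:102490419-102490668 and chrX:48034854-48035103 on the minus strand for Nts and Apln. Capitals mark every match, on either strand, to 6 short motifs: TGACG (cAMP response), ACGTG (HIF), AAGGTCA (NR5A), TGANTCA (AP-1), TGTGGT (RUNX) and GGGCGG (GC box).
Edn2: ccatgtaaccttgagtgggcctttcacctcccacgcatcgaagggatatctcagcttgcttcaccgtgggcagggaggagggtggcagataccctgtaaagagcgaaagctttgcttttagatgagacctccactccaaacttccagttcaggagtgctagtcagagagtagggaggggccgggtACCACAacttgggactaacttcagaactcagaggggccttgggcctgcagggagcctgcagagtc
Nts: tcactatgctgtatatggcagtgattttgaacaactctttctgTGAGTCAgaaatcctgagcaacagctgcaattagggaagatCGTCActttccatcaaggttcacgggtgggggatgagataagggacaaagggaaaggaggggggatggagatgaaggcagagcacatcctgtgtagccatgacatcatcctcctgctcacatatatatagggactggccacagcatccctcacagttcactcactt
Apln: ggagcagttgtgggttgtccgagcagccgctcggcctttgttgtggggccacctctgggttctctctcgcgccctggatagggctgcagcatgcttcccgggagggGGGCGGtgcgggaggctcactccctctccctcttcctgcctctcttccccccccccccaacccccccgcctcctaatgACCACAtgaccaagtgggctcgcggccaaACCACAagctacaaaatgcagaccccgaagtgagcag
The Edn2 stretch held 1 RUNX match, on the opposite strand, 65 to 60 bases before the start. The Apln stretch held 2 RUNX matches on the opposite strand, 66 to 61 and 37 to 32 bases before the start, and 1 GC box from 144 to 139 bases. Of all 32851 promoter stretches of this length, 14.0% held a RUNX match and 32.7% a GC box. The Nts stretch held neither. It held an AP-1 match 207 to 201 bases before the start, whose letters match on both strands, and a TGACG match on the opposite strand 166 to 162 bases before the start. Of all stretches, 6.75% held the AP-1 letters and 17.8% the TGACG letters. The HIF and NR5A letters were in none of the 3 stretches, against 16.6% and 4.08% of all. No stretch is shown for Prkg2. A match is a string of letters and no measured binding.

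All 4 genes were near absent from the young section and present at low to moderate levels in the old one. Prkg2 had 282 counts on 229 beads in the old section, or 120 CPM (106 to 135; CPM are counts scaled to the same total in each section, and brackets hold 95% intervals), and 3 counts on 3 beads in the young section, or 0.582 CPM (0.120 to 1.70). Nts had 96 counts on 81 beads in the old section, 40.9 CPM (33.1 to 49.9), and 4 counts on 4 beads in the young section, 0.775 CPM (0.211 to 1.99). Apln had 86 counts on 75 beads in the old section, 36.6 CPM (29.3 to 45.2), and 5 counts on 5 beads in the young section, 0.969 CPM (0.315 to 2.26). Edn2 had 88 counts on 75 beads in the old section, 37.5 CPM (30.05 to 46.2), and 0 counts in the young section, where the interval reached 0.715 CPM. Within the old section, the intervals of Edn2, Nts and Apln overlapped one another and that of Prkg2 lay above all 3.

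The young counts were too few to show a pattern. The 12 counts sat on 12 beads, and for Nts they lay in 2 quadrants of the young section, for Apln in 3 and for Prkg2 in 2. The ratio of old over young was 206 for Prkg2, 52.7 for Nts and 37.8 for Apln, and for Edn2, with the young section set at a floor of 3 counts, the old level was at least 64.4-fold higher. Of the 10357 genes with at least 50 counts in a section, 0.203% were at least 20-fold higher in the old section, a group that holds all 4 genes by the way they were chosen. Among those genes Prkg2 had the highest ratio, with Edn2 at rank 4, Nts at rank 6 and Apln at rank 12.

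**Figure D1:**
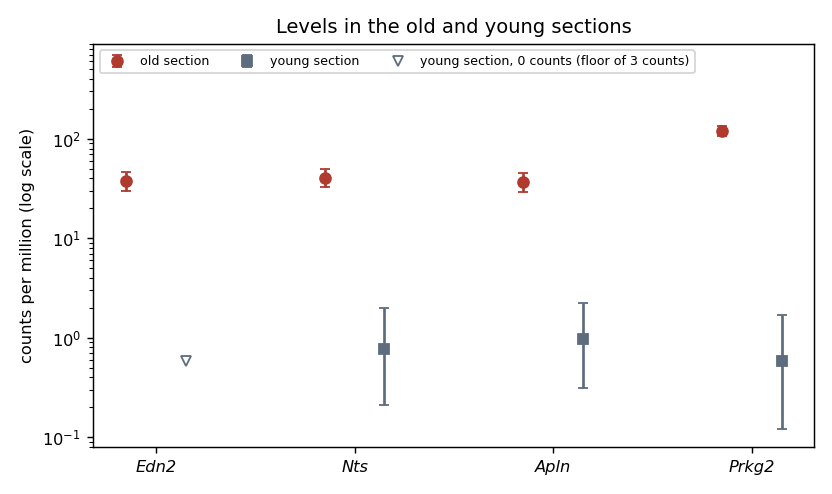
Level of each gene in the old section (red circles) and the young section (grey squares), in CPM on a log axis, with 95% Poisson intervals for counting error. The open triangle stands at the floor of 3 counts for Edn2, which had 0 young counts. Old levels lie between 36.6 and 120 CPM and young levels below 1 CPM.

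No measured partner of these genes had a ratio above 4.34, and several were lower in the old section. Of 33 receptors, enzymes and pathway genes, 23 had at least 20 counts in a section. Among them 7 were at least 1.5-fold higher in the old section, 6 were at least 1.5-fold lower and 10 lay between, with a median ratio of 0.824. Of all 12586 genes with as many counts, 22.6% were higher and 25.4% lower by that size. The count of higher partners, 7 of 23, lies somewhat above that share and the count of lower ones, 6 of 23, close to it, with no test made. Among the higher ones, Nos3 at 1.72 (0.975 to 2.99) and Pde9a at 1.53 (0.754 to 3.02) had intervals that include 1. The 10 partners with fewer counts include Edn3 with 11 old and 11 young counts, Ece2 with 5 and 12, Gucy1a2 with 0 and 4, and Nppa and Nppb with 0 in either section.

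In the endothelin system the receptors were near their young level. Ednra, the main constrictor receptor, had a ratio of 0.824 (0.578 to 1.16) on 48 old and 128 young counts, and Ednrb, the second receptor, a ratio of 0.745 (0.499 to 1.09) on 37 and 109 counts. Ece1, the enzyme that cuts big endothelin to its active form, stood at 518 CPM in the old section and 318 CPM in the young one, a ratio of 1.63 (1.51 to 1.76). The sister ligand Edn1 went the other way from Edn2, with 3 old counts and 36 young counts, a ratio of 0.183 (0.0361 to 0.579). Mme, encoding the peptide-degrading enzyme neprilysin, had 37.5 CPM in the old section and 119 CPM in the young one, a ratio of 0.315 (0.249 to 0.395).

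The receptors for neurotensin were hardly seen, and those for apelin were sparse. Ntsr1 had 0 old and 4 young counts, and Ntsr2 had 1 old and 0 young counts. Sort1, the sorting receptor that also binds neurotensin, had 24 old and 69 young counts, a ratio of 0.764 (0.459 to 1.23). The convertase gene Pcsk5 had 453 CPM in the old section and 104 CPM in the young one, a ratio of 4.34 (3.91 to 4.83), and the convertase gene Furin a ratio of 2.02 (1.65 to 2.47). Cpe, encoding carboxypeptidase E, which trims peptide ends, had a ratio of 0.802 (0.757 to 0.849), and the neuroendocrine convertase genes Pcsk1 and Pcsk2 had 0 and 2 old counts and 0 and 2 young counts. Aplnr, the apelin receptor, had 24 old and 27 young counts, a ratio of 1.95 (1.08 to 3.51). The other Aplnr ligand gene, Apela, had 0 counts in either section.

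Upstream of the kinase, Nppc and Npr2 were low in the old section. In the follicle, C-type natriuretic peptide from granulosa cells acts on the guanylyl cyclase Npr2 and the cGMP it makes helps hold the oocyte in meiotic arrest. Nppc, which encodes that peptide, had 11 counts (4.68 CPM) in the old section and 431 counts (83.6 CPM) in the young one, a ratio of 0.0561 (0.0278 to 0.101). Npr2 had 60.03 CPM in the old section and 192 CPM in the young one, a ratio of 0.313 (0.261 to 0.374). Gucy1a1, a subunit of the nitric oxide receptor cyclase, had a ratio of 0.293 (0.241 to 0.354), while its partner subunit Gucy1b1 had 0.824 (0.474 to 1.38). The granulosa marker list, which Nppc and Npr2 accompany in follicles, was itself at 2237 CPM in the old section and 8873 CPM in the young one, and its part in these ratios was not tested.

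The other cGMP genes lay nearer to the young level. Npr1, the receptor for atrial and B-type peptides, had a ratio of 1.31, and the clearance receptor gene Npr3 one of 1.24. Pde5a and Pde9a, which break down cGMP, had ratios of 1.35 and 1.53, and the endothelial nitric oxide synthase gene Nos3 had 1.72 (0.975 to 2.99). Prkg1, the soluble relative of Prkg2, had 24 old and 72 young counts, a ratio of 0.732 (0.441 to 1.18). Of genes for kinase targets, Vasp had a ratio of 1.60 (1.36 to 1.88), Mrvi1 one of 0.913 and Kcnma1 one of 0.605 (0.431 to 0.834).

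**Figure D2:**
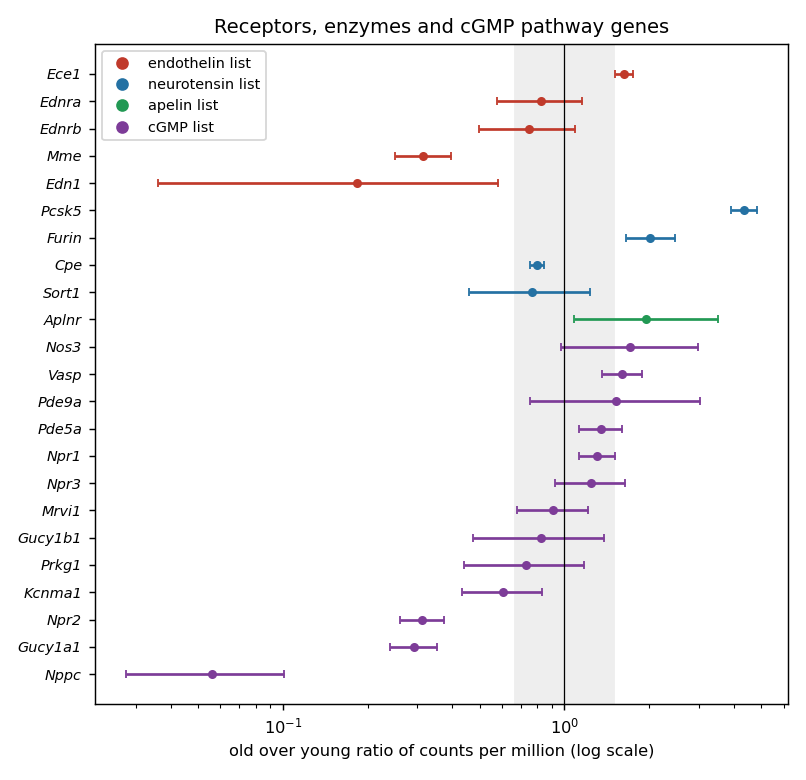
Ratio of old over young CPM for the 23 measured partners, on a log axis, coloured by list, with exact 95% intervals for counting error; the grey band spans ratios within 1.5-fold. Nppc lies lowest at 0.0561 and Pcsk5 highest at 4.34.

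Within the old section the 4 genes gathered in 2 patches of tissue rich in Adamts1, a matrix protease gene induced in ovulatory granulosa cells and not one of the 4. A square grid with a side of 5 bead spacings gave 1419 bins that held 500 counts or more, where a spacing is the median distance from an array bead to its nearest neighbour, and the fifth of bins richest in Adamts1 was taken. Prkg2 had 345 CPM inside those bins and 16.9 CPM in the others, a ratio of 20.4 (13.5 to 32.2). Edn2 had 105 CPM inside and 6.07 CPM outside, a ratio of 17.3 (8.65 to 39.3). Apln had 92.6 CPM inside and 12.8 CPM outside, a ratio of 7.22 (4.28 to 12.7), and Nts 77.1 CPM inside and 23.6 CPM outside, a ratio of 3.27 (2.10 to 5.14). Of 7840 other genes with at least 50 old counts, 13.4% were at least 1.5-fold higher in the Adamts1-rich bins and 0.166% at least 10-fold higher. All 4 genes were in the first group, and Prkg2 and Edn2, at ranks 2 and 3, also in the second.

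The choice of bins mattered most for Nts. With the richest 1 in 10 bins its ratio was 1.02 (0.561 to 1.74), with bins of at least 1000 counts 1.02 and on beads of at least 200 counts 1.21. Without the old quadrant of low x and high y, which leaves fewer bins for the fifth to be drawn from, it was 1.01. With the richest 1 in 10 bins Prkg2 had 5.91, Edn2 7.08 and Apln 3.70, and without the quadrant of high x and low y Apln had 2.99. Beads in the Adamts1-rich bins held more counts, a median of 320 against 154 outside them.

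**Figure D3:**
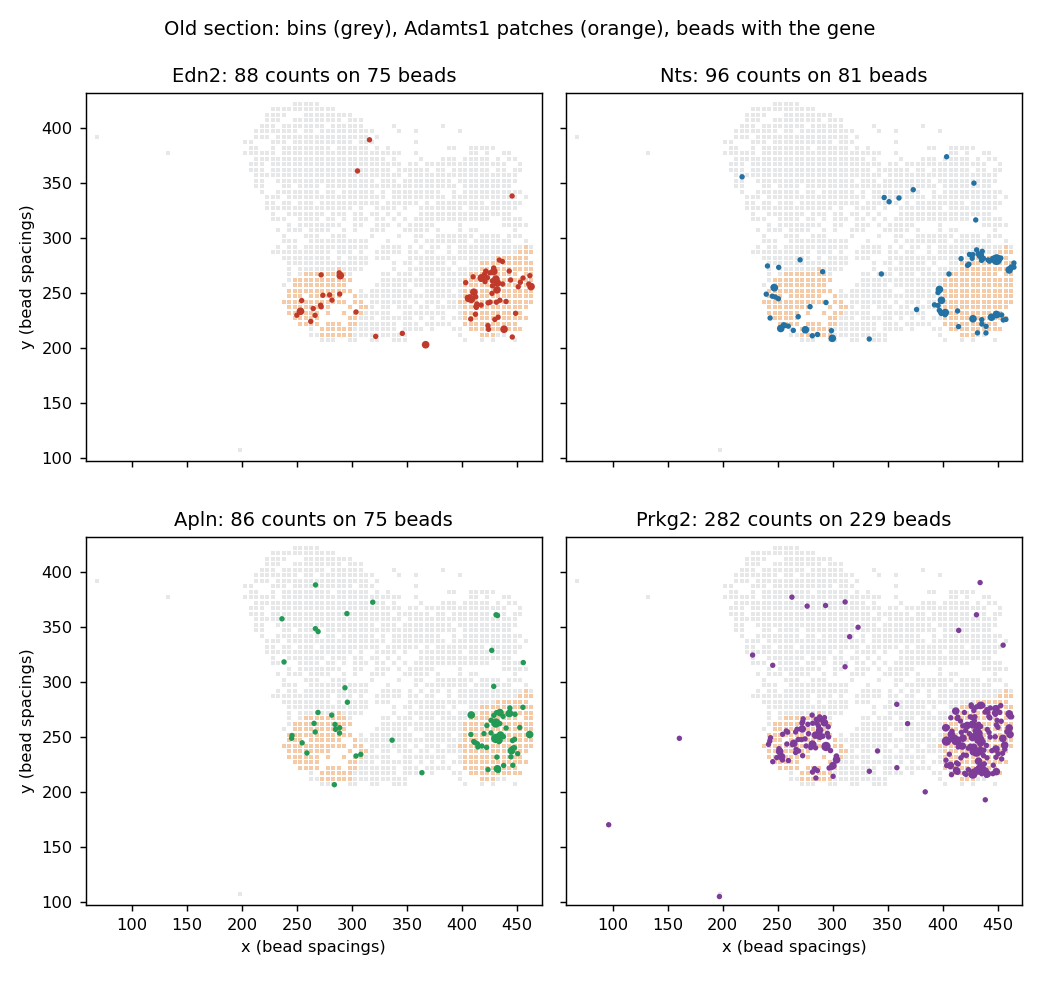
Positions in the old section, in bead spacings, of the beads that hold each gene (coloured points, area by count), over the bins of the section (grey) and the 2 Adamts1 patches (orange). Prkg2 and Edn2 fill the patches, while Nts is densest near their borders, most clearly at high x, and is also found deeper inside.

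The Adamts1-rich bins formed 2 large groups of adjoining bins, of 148 and 106 bins, and the next group had 1 bin. After filling small gaps the patch at high x covered 169 bins with 495009 counts and the patch at low x 135 bins with 237011 counts. The patches held 89.8% of Edn2 counts, 89.4% of Prkg2 counts, 75.6% of Apln counts and 60.4% of Nts counts. For comparison, they held 89.5% of Adamts1 counts, the gene that set their outline. Outside both patches were 9 counts of Edn2, 30 of Prkg2, 21 of Apln and 38 of Nts.

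The patches carried similar levels of Prkg2 and Nts. Prkg2 had 360 CPM in the high-x patch and 312 CPM in the low-x patch, a ratio of 1.15 (0.873 to 1.53), and Nts had 80.8 and 75.9 CPM there, a ratio of 1.06 (0.596 to 1.97). Edn2 had 123 CPM in the high-x patch and 75.9 CPM in the low-x patch, a ratio of 1.62 (0.946 to 2.92), whose interval includes 1. Apln had 107 CPM in the high-x patch and 50.6 CPM in the low-x patch, a ratio of 2.11 (1.12 to 4.35). Adamts1 itself was slightly lower in the high-x patch, with a ratio of 0.856 (0.796 to 0.921).

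Inside the patches the genes were arranged in different layers. Beads were placed by their distance to the patch edge into a core deeper than 15 spacings, a middle from 15 to 5 spacings deep, a rim reaching 5 spacings to either side of the edge, a surround from 5 to 20 spacings outside, and the rest. These widths were set after the maps had been seen. Over both patches together, Nts was highest at the rim, with 201 CPM (141 to 279) there on 36 counts, 84.04 CPM (54.4 to 124) in the middle and 41.4 CPM (22.6 to 69.4) in the core. It then stood at 30.1 CPM in the surround and 7.62 CPM in the rest of the section. The rim thus held 40.0% of the Nts counts in bins, against 8.15% of all counts. In the high-x patch Nts had 270 CPM (179 to 390) at the rim on 28 counts and 79.2 CPM (44.3 to 131) in the middle. In the low-x patch it had 107 CPM (46.1 to 210) at the rim on 8 counts and 92.5 CPM (44.3 to 170) in the middle on 10. The step from middle to rim thus rested on the high-x patch.

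Edn2, Prkg2 and Apln were lower at the rim than in the core. Edn2 had 28.0 CPM (9.08 to 65.2) at the rim, 128 CPM (90.4 to 175) in the middle and 106 CPM (74.5 to 147) in the core, and 0 counts in the surround, where the interval reached 18.5 CPM. Prkg2 had 173 CPM (118 to 246) at the rim, 377 CPM (310.03 to 453) in the middle and 334 CPM (275 to 401) in the core, and also 0 counts in the surround. Apln had 28.0 CPM (9.08 to 65.2) at the rim, 94.1 CPM (62.5 to 136) in the middle and 106 CPM (74.5 to 147) in the core, with 3 counts, 15.1 CPM, in the surround. Apln was the most evenly spread of the 3 beyond the patches, at 11.0 CPM in the rest of the section against 106 CPM in the core.

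The rim over core ratio was 4.87 (2.56 to 9.77) for Nts, 0.519 (0.337 to 0.778) for Prkg2 and 0.263 (0.0805 to 0.672) for both Edn2 and Apln, which had the same counts in both layers. The intervals of Nts and of the other 3 do not overlap. Of 5392 genes with at least 20 counts in rim and core together, 16.7% were at least 1.5-fold higher at the rim and 20% at least 1.5-fold lower, with a median of 0.984, and 0.482% were at least 10-fold higher, which no member was. Nts stood at rank 77 from the highest and Edn2 and Apln at ranks 5333 and 5332. In the high-x patch alone the ratio of Nts was 5.62 (2.77 to 12.1), and in the low-x patch alone 4.72 (0.942 to 45.6) on 8 rim and 2 core counts. For Apln it was 0.150 (0.0175 to 0.590) in the high-x patch and 0.885 (0.130 to 5.23) in the low-x patch, on 3 rim and 4 core counts, so its layering rested on the high-x patch. For Edn2 the values were 0.289 and 0.215, and with patches drawn from the richest sixth of bins 0.917 (0.454 to 1.84). With patches drawn on bins of 3 spacings Edn2 had 0.540 (0.252 to 1.12) and Apln 0.593 (0.233 to 1.46), and with the richest sixth Apln had 0.507 (0.221 to 1.10), so the call for both genes was lost under these outlines.

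**Figure D4:**
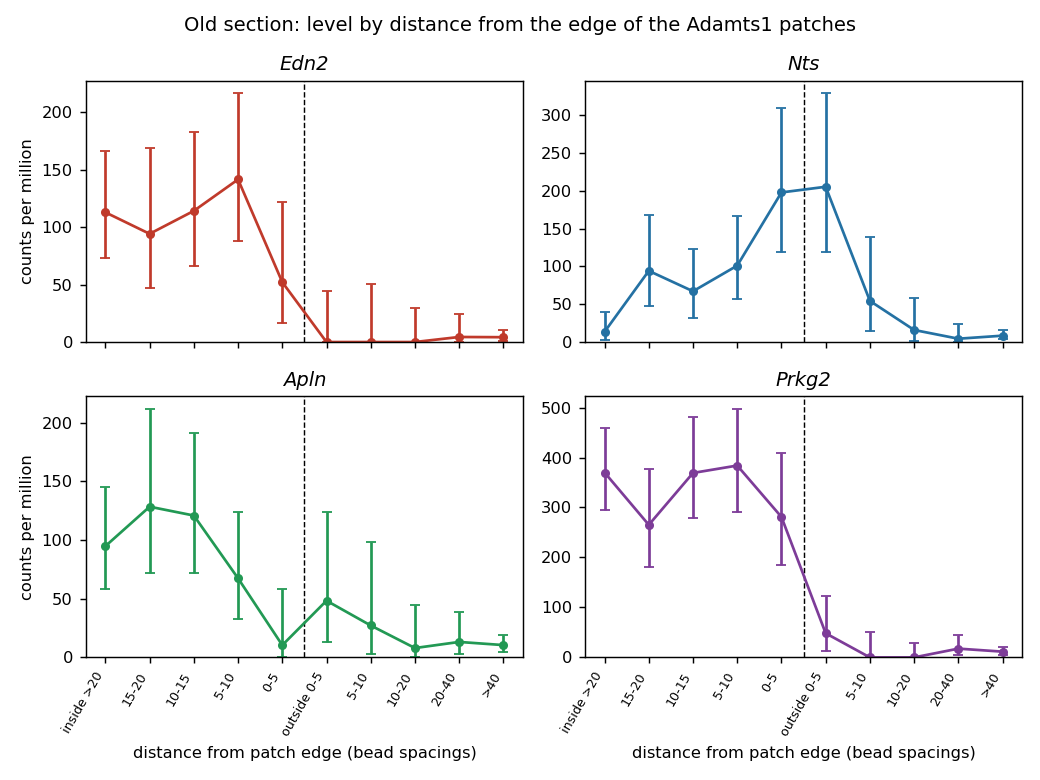
Level of each gene in the old section by distance from the edge of the Adamts1 patches, in CPM, from deepest inside (left) to farthest outside (right), with 95% Poisson intervals; the dashed line is the patch edge. Nts peaks within 5 spacings on either side of the edge at 198 and 205 CPM, while Edn2 and Prkg2 drop to 0 and 48.3 CPM just outside it.

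Other cell type markers changed across the same layers. The stromal fibroblast list had 2885 CPM at the rim and 260 CPM in the core, the smooth muscle list 1448 and 118 CPM, the blood endothelium list 481 and 97.5 CPM, and the theca and interstitial list 1017 and 349 CPM. In the surround the same lists stood, in that order, at 2898, 1562, 512 and 794 CPM. Nts was at 30.1 CPM there, against 201 CPM at the rim. Of these lists, 0 of 8 stromal, 0 of 7 smooth muscle, 2 of 9 endothelial and 0 of 5 theca genes were at 0 at the rim, against 0, 2, 4 and 2 in the core. The granulosa list ran the other way, at 1862 CPM at the rim and 2863 CPM in the core. Of its 10 genes, 3 were at 0 at the rim and 2 in the core. Its measured genes went both ways in the Adamts1-rich bins. Nr5a2 had a ratio of 5.06 there, Inhba 3.78 and Serpine2 1.19. Inha had 0.741, Foxl2 0.595, Hsd17b1 0.476 and Gja1 0.466. Oocyte genes were highest in the surround, at 1452 CPM, against 35.5 CPM in the core. The median bead had 254 counts at the rim and 388 in the core. The part of these lists and of depth in the layering of the 4 genes was not tested.

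Bins grouped by their marker content separated Nts from the other genes again. In the fifth of bins richest in stromal fibroblast genes Nts had 89.7 CPM, against 31.2 CPM in the other bins, a ratio of 2.87 (1.81 to 4.49). The same bins held little of the others, with ratios of 0.0598 (0.00150 to 0.343) for Edn2, 0.0744 (0.0201 to 0.193) for Prkg2 and 0.377 (0.134 to 0.858) for Apln. Stromal-rich bins were not uniform for Nts. Those within 10 spacings of a patch edge had 256 CPM (170.4 to 371) on 28 counts, and those farther outside 19.4 CPM (6.30 to 45.3) on 5 counts, a split made after the data were seen.

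In bins rich in smooth muscle genes Nts had a ratio of 1.65 (0.962 to 2.72), and 2.31 (1.23 to 4.05) and 2.38 (1.53 to 3.67) with the richest 1 in 10 and 1 in 3 bins, while Edn2 had 0 of its 84 binned counts there. In bins rich in blood endothelium genes Nts was at 40.7 CPM inside and 41.1 CPM outside, and with the richest 1 in 3 bins its ratio was 1.75 (1.13 to 2.70). Apln, a gene often used as a marker of sprouting vessel tips, had only 1 count in the endothelium-rich bins, 2.91 CPM, against 45.4 CPM in the others, a ratio of 0.0641 (0.00161 to 0.367). Bins rich in the luteal list, which includes Ptgfr and Prlr, held 1 count each of Edn2 and Nts, 5 of Prkg2 and 6 of Apln, with ratios from 0.0482 for Nts to 0.326 for Apln. Macrophage-rich bins had ratios between 0.0787 for Edn2 and 0.239 for Apln. The 146 bins that held any oocyte marker had a ratio of 2.16 (1.26 to 3.56) for Apln and 1.57 (1.15 to 2.12) for Prkg2, against 0.835 (0.385 to 1.62) for Edn2 and 0.140 (0.0168 to 0.523) for Nts. With the richest 1 in 10 bins the ratio was 1.06 (0.505 to 2.00) for Apln and 0.884 (0.583 to 1.29) for Prkg2, so neither call held there. Counts inside fell from 22 to 11 for Apln and from 55 to 30 for Prkg2, while all counts inside fell only from 305646 to 271051. Much of the excess thus lay in the few bins where oocyte genes made up the smallest share of the counts. Bins were ranked by that share, so a bin with many counts in all can rank low. Of the 146 bins, 21.2% were also Adamts1-rich. Granulosa-rich and cholesterol synthesis-rich bins had ratios between 0.711 and 1.22 for all 4 genes, each with an interval that includes 1. Other shares of bins gave other values. In the granulosa-richest 1 in 3 bins Edn2 had 2.29 (1.44 to 3.67), Apln 2.33 (1.47 to 3.73) and Prkg2 2.26 (1.76 to 2.91), and in the richest 1 in 10 they had 0.519, 0.622 and 0.907, with intervals that include 1. In the cholesterol synthesis-richest 1 in 10 bins Edn2 had 0.317 (0.0640 to 0.960) and Prkg2 0.194 (0.0705 to 0.427), and in the richest 1 in 3 Edn2 had 1.68 (1.07 to 2.63).

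**Figure D5:**
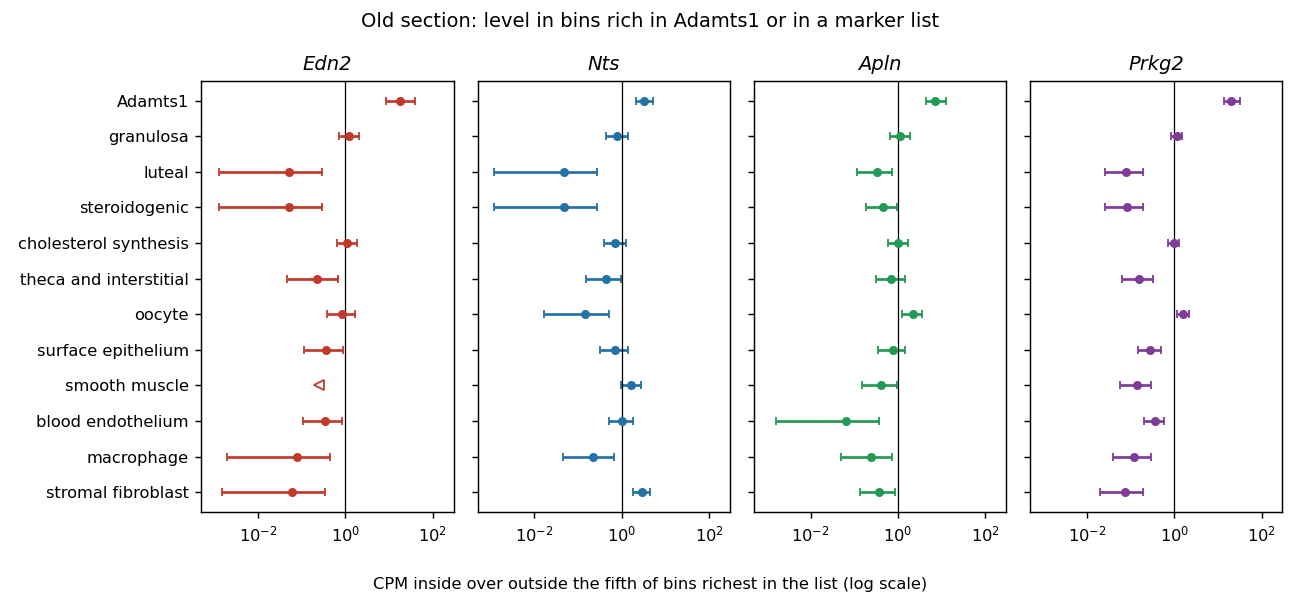
Ratio of CPM inside over outside the fifth of old-section bins richest in Adamts1 or in each marker list, on a log axis with exact 95% intervals for counting error; the open arrowhead is the upper limit where the inside count was 0, and for oocyte genes all bins with a marker count were taken. Nts is the gene with a ratio above 1 in stromal-rich bins, at 2.87.

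By quadrant, split at the median x and y of the beads, the quadrant of high x and low y held 73.9% of Edn2, 66.7% of Prkg2, 67.4% of Apln and 62.5% of Nts counts, against 37.05% of all counts. The quadrant of low x and high y held 3.41% of Edn2, 3.19% of Prkg2, 8.14% of Apln and 1.04% of Nts counts, against 24.8% of all. Nts also stood highest toward the outside of the tissue, with 71.5 CPM (53.3 to 94.04) within 20 spacings of the tissue edge, 36.5 CPM (24.6 to 52.2) from 20 to 40 spacings and 13.6 CPM (6.23 to 25.9) deeper. Edn2 was highest in the middle layer at 56.02 CPM, against 32.3 CPM in the outer layer and 22.7 CPM in the inner one. Patches took 38.4% of the counts of the outer layer, 42.7% of the middle layer and 16.3% of the inner layer. Depth in the tissue and place in a patch were thus linked, mainly through the inner layer. The outer and middle layers had similar patch shares, while Nts was at 71.5 and 36.5 CPM there. The part of the patches in these levels was not tested.

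On single beads the genes met mostly through Prkg2, the gene with the most counts. Of the beads that held any of the 4 genes, 369 held 1, 41 held 2, 3 held 3 and 0 held all 4. Edn2 met Prkg2 on 18 beads and Apln met Prkg2 on 20 beads, Edn2 met Apln on 4, while Nts met Edn2 on 1 bead, Apln on 0 and Prkg2 on 7. Adamts1 was present on 80% of the beads with Edn2, 78.2% of those with Prkg2, 65.3% of those with Apln and 49.4% of those with Nts, against 60.4% of all beads in the patches. The beads with a gene were taken over the whole section, so these shares are not like for like. In the patches lay 67 of 75 beads with Edn2, 200 of 229 with Prkg2, 55 of 75 with Apln and 46 of 81 with Nts. These beads were deep, with medians from 576 counts for Nts to 950 for Edn2, against 344 for all patch beads, and the part of depth in these meetings was not tested.

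Over a coarser grid of 10 spacings a side, in the 392 bins that held 2000 counts or more, all from 1 library, the square root of CPM gave a Pearson r of 0.546 between Edn2 and Prkg2, 0.359 between Apln and Prkg2 and 0.290 between Edn2 and Apln. Nts had r values of 0.172 with Prkg2, 0.0843 with Edn2 and 0.0515 with Apln. The bins differ in total counts, and r with the square root of the bin total was 0.513 for Prkg2, 0.452 for Edn2, 0.360 for Apln and 0.176 for Nts. Among 5165 genes with at least 100 old counts, those most like the sum of the 4 were Adamts1 (r of 0.738), Vcan (0.692), Bves (0.679), Smarca1 (0.645), Rhox8 (0.639), Runx1 (0.628), Cnn3 (0.620) and F3 (0.617). Prkg2 weighs most in that sum, with 282 old counts against 88 for Edn2, 96 for Nts and 86 for Apln. Vcan encodes versican, a matrix substrate of the Adamts1 protease, Runx1 a transcription factor induced in ovulatory granulosa cells, and F3 tissue factor.

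The nearest genes differed for Nts. Timp1, an inhibitor of matrix proteases, had an r of 0.431 with it, Lox, a collagen crosslinking enzyme, 0.344 and Slc7a11, a cystine transporter, 0.340. For Edn2 they were Vcan (0.557), Adamts1 (0.556) and Bves (0.536), for Prkg2 Adamts1 (0.740), Bves (0.732) and Vcan (0.678), and for Apln Vcan (0.380), Adamts1 (0.369) and Smarca1 (0.360). Counts this sparse give weak r values for Nts and Apln, which are given as an order only. With bins of 5 spacings 2 of the 3 genes named for Nts and 1 of the 3 named for Apln were again among the nearest 3.

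Most measured genes of the ovulatory programme were also concentrated in the Adamts1-rich bins. Of 24 such genes, 17, with Adamts1 among them, had at least 20 counts in a section. Of these, 14 were at least 1.5-fold higher and 0 at least 1.5-fold lower in the old section, with a median ratio of 4.69. Of all genes 22.6% and 25.4% were, with a median of 0.988. The list was drawn up with such results known. The genes left out were sparse. Their old and young counts were 13 and 4 for Ereg, 11 and 9 for Ptx3, and 5 and 2 for Il6. Sult1e1 had 4 and 0, Areg 3 and 0, Pgr 2 and 3, and Has2 1 and 0. Of the 16 measured in the old section besides Adamts1, 15 were at least 1.5-fold higher in the Adamts1-rich bins, with a median of 4.62, against 13.6% of all genes and their median of 0.909. Btc, an EGF-family ligand, had a ratio of 24.2 (7.64 to 123) there, Zbtb16, a transcription factor gene, 13.5 (6.37 to 32.9), Snap25, which serves vesicle release, 11.8 (4.89 to 34.3), and Runx1 8.11 (6.94 to 9.51). Ptgs2, the inducible prostaglandin synthase gene, had 2.67 (1.26 to 5.80) on 18 inside and 14 outside counts, a ratio near that of Nts.

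Of the ovulatory genes, Vegfa, which encodes a vessel growth factor, was far higher in the core than at the rim. Vegfa had 106 CPM at the rim, 316 CPM in the middle and 756 CPM in the core, a rim over core ratio of 0.140 (0.0832 to 0.224). Rgcc and F3 had ratios of 0.294 and 0.279, Ptgs1 0.436, Runx1 0.484, and the hypoxia factor gene Hif1a 0.975 (0.681 to 1.38). No ovulatory gene with at least 50 old counts had a rim over core ratio above that of Pparg, 1.56 (0.711 to 3.36), on 14 and 17 counts. The upper limit for Pparg lies above the lower limit for Nts, 2.56. Among the partners, Npr3 had 7 rim counts and 0 core counts, with a lower limit of 1.78 for the ratio, and Pde5a had a ratio of 3.15 (1.04 to 10.6).

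The endothelin receptor genes lay mostly outside the Adamts1-rich bins. In the Adamts1-rich bins Ednra had 5.61 CPM, against 27.0 CPM in the other bins, a ratio of 0.208 (0.0540 to 0.575), and Ednrb had 4.21 CPM against 22.3 CPM, a ratio of 0.189 (0.0371 to 0.602). Aplnr had 3 counts inside and 20 outside, a ratio of 0.312 (0.0593 to 1.05). Of the enzyme genes for active peptides, Ece1 had 913 CPM inside and 354 CPM outside, a ratio of 2.58 (2.30 to 2.90). Furin had 153 and 56.01 CPM, a ratio of 2.73 (2.03 to 3.68). Within the patches Ece1, Furin and Cpe did not share the layer of Nts, which had a rim over core ratio of 4.87. That ratio was 0.546 (0.430 to 0.688) for Ece1, 0.454 (0.220 to 0.865) for Furin and 0.754 (0.608 to 0.932) for Cpe. Pcsk5 was higher at the rim, as Nts was, with a smaller ratio of 1.41 (1.15 to 1.72). Inside over outside the Adamts1-rich bins, Pcsk5, Cpe and Sort1 had ratios of 1.75, 1.67 and 1.04. Mme, the peptide-degrading enzyme gene, was at 7.01 CPM inside and 46.6 CPM outside, a ratio of 0.151 (0.0474 to 0.369).

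Of the cGMP genes other than Prkg2, 11 had at least 20 old counts, and 8 were at least 1.5-fold lower and 0 at least 1.5-fold higher in the Adamts1-rich bins, against 26.5% and 13.6% of all 10536 genes with as many counts. Mrvi1, a target of cGMP-dependent kinase in smooth muscle, had a ratio of 0.0346 (0.000863 to 0.200) on 1 inside count, Nos3 0.189 (0.0215 to 0.768) and Pde5a 0.236 (0.141 to 0.376). Prkg1 had 4 counts inside and 18 outside, a ratio of 0.462 (0.114 to 1.40), and Npr2 was even at 0.949 (0.642 to 1.38). Smooth muscle and endothelial genes, which these cGMP genes accompany in vessels, were likewise low in the patches, and their part was not tested.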

How the data were processed

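Slide-seq counts were deposited by the authors as whole-number counts per gene and bead barcode for 1 old and 1 young ovary section, with a second deposited file of bead positions, whose values carry no stated length unit. The build was mm10, per the submitters' processing notes. For the alignment and counting tools, and for whether a count is a molecule or a read, no statement was found in the labels. The fewest counts on a listed bead were 10. All beads were kept, and 93.5% of old counts lay in bins of at least 500 counts.

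Counts were summed per section, layer or bin class and scaled to CPM. Ratios carry exact conditional binomial (Clopper-Pearson) 95% intervals, levels exact Poisson intervals, both for counting error only, and 0 counts were set against a floor of 3 counts over the section. Genes were counted as higher or lower at 1.5-fold without a test. The 4 genes and all lists were chosen with earlier results of these data known. Every partner and ovulatory gene with at least 20 counts in a section was eligible to be named, with the 8 genes most like the sum and 3 most like each gene, leaving out mitochondrial, ribosomal protein and clone-named genes. The ratio and layer steps were tested on simulated counts. Python 3.11.15, numpy 2.4.6, scipy 1.17.1 and matplotlib 3.10.9 were used. 1 gene was left out of the partner lists and is not reported here.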

Additional observations from a re-analysis of the deposited data

How the results depend on the processing

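No paired analysis was possible because the sections share no replicate number. Each age had 1 library, so none could be left out, and quadrants of a section were left out in its place. All 112 recomputed main values stayed on the same side of 1, with 85 inside the counting interval of the main value and 27 outside it. That side alone is no called direction, as some of them had intervals that include 1. Among these were Nts in the richest 1 in 10 bins, at 1.02 (0.561 to 1.74), and Edn2 rim over core with the richest 1 in 6 bins, at 0.917. The old over young bound for Edn2 was 39.4 with equal weight per bin, 26.7 and 82.7 without the old quadrants of high x and low y and of low x and high y, and 38.6 and 50.8 without the young quadrants of low x and high y and of low x and low y. For the ratio inside over outside the Adamts1-rich bins, the richest 1 in 10 bins gave 7.08 for Edn2, 1.02 for Nts, 3.70 for Apln and 5.91 for Prkg2. Bins of 3 spacings gave 2.09 for Nts and 13.1 for Prkg2, bins of at least 1000 counts 1.02 and 9.50, and beads of at least 200 counts 1.21 and 12.9. Without the quadrant of low x and high y it was 7.77 for Edn2, 1.01 for Nts and 8.73 for Prkg2, without that of high x and high y 1.66 for Nts and 12.7 for Prkg2, without that of low x and low y 44.5 for Edn2, and without that of high x and low y 2.99 for Apln. For rim over core, alternatives chosen after seeing the data, the richest 1 in 6 bins gave 0.917 for Edn2 and 20.3 for Nts, bins of 3 spacings 9.83 for Nts, the low-x patch alone 0.885 for Apln, and the richest 1 in 4 bins 0.330 for Prkg2. Of 124 other values, 4 turned direction where the main value had a called direction (a ratio whose interval excludes 1, or the sign of Moran's I), and ratios near 1 that crossed it are not counted: Moran's I of Apln, a measure of likeness between adjoining bins, was -0.00062 when bins were thinned to 200 counts, Prkg2 in the richest 1 in 10 bins for oocyte genes had 0.884, and in the richest 1 in 3 bins for surface epithelium genes Edn2 had 1.52 and Prkg2 1.29. The cause was not tested. Low counts, at most 5 per gene in the young section, limit what can be said there.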
